A study of Arabidopsis thaliana with 4 samples.

Results

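Whether an mRNA was held on polysomes to a different degree in light than in darkness was measured for 13232 Arabidopsis thaliana genes of 33602 entries in the deposited table. For each gene the polysomal RPKM was divided by the total RPKM, which gives the loading, and the log2 loading in the dark was subtracted from the log2 loading in light. This difference is called the shift below, and the median gene was set to 0, so a positive shift means that a larger part of the mRNA was polysomal in light, relative to the median gene. Members had a value in all 4 libraries, at least 50 reads in each, and polysomal reads that were whole numbers within 0.01. Of 18584 genes with 4 values, 1615 had under 50 reads in a library, and a further 3737 had polysomal reads that were not whole, which means that reads shared with another gene had been divided. They were set apart and counted separately.

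All seedlings were wild type Col-0, 4 days old and grown in the dark at 22 °C. The light groups then received 4 h of white light at 100 µmol per square metre per second, and the dark groups none. The 4 groups were polysomal RNA in light, polysomal RNA in the dark, total RNA in light and total RNA in the dark, with 1 library each. Fraction and extraction differed together in both conditions, since phenol and chloroform were used for polysomal RNA and the Pine Tree method for total RNA. With 1 library a group no test between groups was possible: differences have no replicate check, and the 95% intervals given are counting errors of the 4 read numbers only.

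A polysome is an mRNA that carries several ribosomes, and the polysomal share of an mRNA is commonly read as a measure of how actively it is translated. Seedlings germinated in the dark are etiolated, with a long hypocotyl, closed cotyledons and precursors of chloroplasts. On their first light, phytochromes and cryptochromes change both transcription and translation: hypocotyl growth slows, chloroplasts form, and seedlings leave the use of stored reserves for photosynthesis.

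The table listed 61006149 reads for polysomal light, 77849944 for polysomal dark, 91087442 for total light and 64950412 for total dark. The median member had 897 reads in polysomal light and 1258 in polysomal dark, with 1900 in total light and 1258.5 in total dark. Markers of both states went with the labels. PORA, a protochlorophyllide oxidoreductase of etiolated tissue, had 3.31 RPKM in polysomal light and 311 in polysomal dark, with 2.00 in total light and 109.7 in total dark. PIL1, a gene of shade and darkness, had 2.11 RPKM in polysomal light and 46.4 in polysomal dark, with 0.68 in total light and 22.0 in total dark. ELIP1, an early light-induced protein, had 1136 RPKM in polysomal light and 38.6 in polysomal dark, with 156 in total light and 1.74 in total dark. Polysomal RPKM rested on a gene length that was 0.957 of the tabulated length for the median member and 0.717 at the 5th percentile, while total RPKM rested on the tabulated length. A constant length cancels in the shift, which compares light with dark within each fraction, provided that the part of the gene counted responds like the whole; that was not tested. The length enters every loading, so loadings below are compared only between conditions and not between genes.

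Before centring, the median gene had a shift of -0.22 on the log2 scale. A change shared by all mRNAs cannot be separated from a change in what was recovered, and the values below are relative to that gene. The shifts of the members had an SD of 0.46, and 90% of them lay between -0.70 and 0.74, against a median half-width of 0.17 for the counting interval. At least 2-fold higher in light were 277 members (2.09% of those measured) and at least 2-fold lower were 277 (2.09%). Without centring, 141 were higher and 501 lower, so the even split rests on the centring. The whole counting interval lay past 2-fold for 100 of the higher and 147 of the lower genes. At 1.5-fold, 1106 members (8.36%) were higher and 973 (7.35%) lower. Of the 3737 genes set apart, 59 were 2-fold higher (1.58%) and 116 were 2-fold lower (3.10%), with a median of -0.02. The 137 members whose lowest library had 50 to 54 reads had a median shift of 0.03, with 16 higher and 11 lower by 2-fold. The 122 genes just outside, with 45 to 49 reads, had a median of -0.13, with 13 higher and 15 lower. On both sides of the limit these are larger shares than the 2.09% of all members each way, so calls near 50 reads are less certain.

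The genes on the higher and the lower side differed in mean level and in the light ratio of total mRNA. Both are drawn from the same values as the shift. Genes 2-fold higher had a median length of 1.33 kb, 3 exons and a mean level of 3.45 RPKM. Genes 2-fold lower had a median length of 1.35 kb, 2 exons and 16.7 RPKM, and all members had 1.71 kb, 5 exons and 11.6 RPKM. Total mRNA differed by under 2-fold between light and dark for 212 of the 277 higher genes (76.5%) and for 111 of the 277 lower genes (40.1%), against 81.8% of all members. The light ratio of total mRNA is a term of the shift that chose these genes, so these shares are not a separate measure. The balance of higher and lower genes depended on level: among the 7276 members with a mean of at least 10 RPKM, a limit added after the values were seen, 67 were 2-fold higher and 172 were 2-fold lower. Among the 7184 members whose polysomal length was within 5% of the tabulated one, the counts were 132 and 97. In a bulk seedling, fewer cells of a type and less RNA per cell cannot be told apart.

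**Figure D1:**
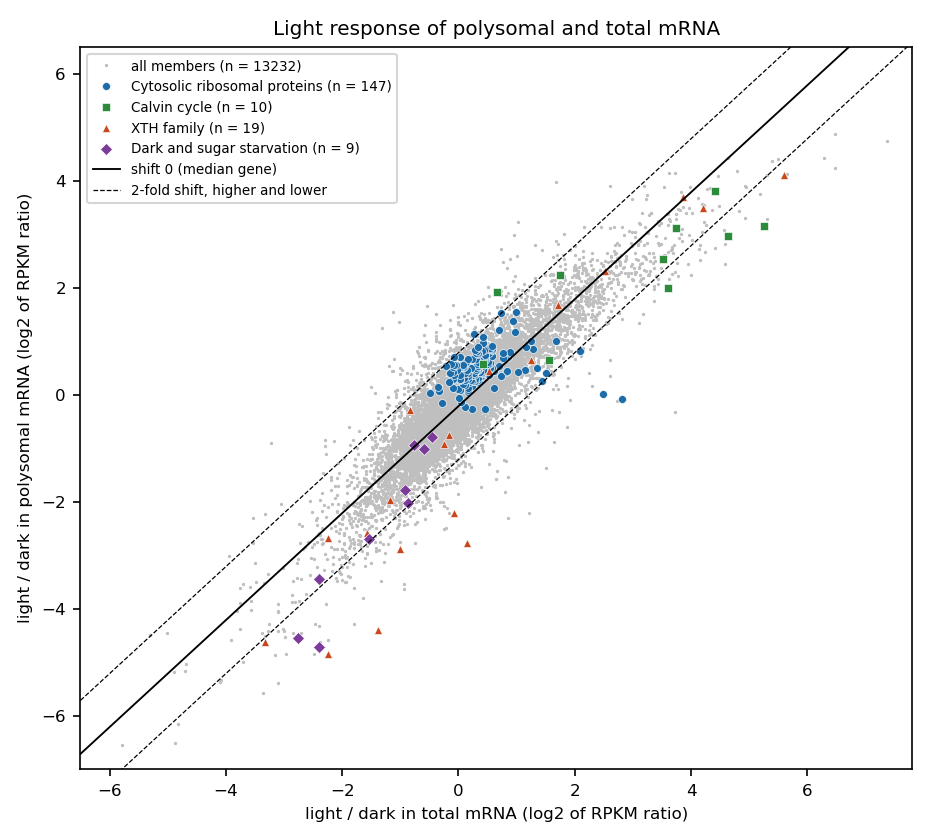
Light over dark in total mRNA (horizontal, log2 of the RPKM ratio) and in polysomal mRNA (vertical, log2) for the 13232 members, with 4 gene groups coloured; the solid line is a shift of 0 and the dashed lines are 2-fold shifts. Cytosolic ribosomal protein genes lie mostly above the solid line, while XTH and starvation genes lie mostly below it and 7 of 10 Calvin cycle genes lie below it at strongly raised total mRNA.

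The list with the highest median shift was part of the protein synthesis machinery itself. Cytosolic ribosomal proteins, which build the ribosome's large and small subunits, had a median shift of 0.40 over 147 members, against 0.00 for all members, and 128 of the 147 were above 0. At 1.5-fold, 42 were higher (28.6%, against 8.36% of all members) and 6 were lower (4.08%, against 7.35%). At 2-fold, 1 was higher (0.68%) and 3 were lower (2.04%), against 2.09% of all members each way. Their summed RPKM was 42742 in polysomal light and 31041 in polysomal dark, while the sum in total mRNA was 10386 in light and 8598 in the dark. The sum thus had the same shift as the median gene of the list, 0.40. Another 43 ribosomal protein genes with divided reads had a median of 0.30.

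The highest ribosomal protein gene was AT5G60670, an L11 family member on chromosome 5. It had 88.7 RPKM in polysomal light and 40.3 in polysomal dark, with 23.3 in total light and 19.4 in total dark. Its loading was 3.81 in light and 2.07 in the dark, a shift of 1.09 (95% counting interval 0.96 to 1.23). AT4G10450, an L6 family gene, followed with 1.00, and AT2G36160, an S11 family gene, with 0.98. AT2G36160 had 246 RPKM in polysomal light and 152 in polysomal dark, beside 60.1 in total light and 62.9 in total dark: its total mRNA was nearly level while its polysomal mRNA was higher in light.

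The 5 promoters shown carry the telo-box, an 8-base element known from plant ribosomal protein promoters. They are among the genes with the highest shifts of the ribosomal protein and ribosome biogenesis members with the box in the 100 bases before the start. Each stretch is the 100 bases before the annotated gene start, read 5′ to 3′ on the gene's strand from the RefSeq genome of build TAIR10.1, and capitals mark AAACCCTA or its reverse complement TAGGGTTT.
AT5G60670, L11 family, chr5:24381600-24381699, minus strand: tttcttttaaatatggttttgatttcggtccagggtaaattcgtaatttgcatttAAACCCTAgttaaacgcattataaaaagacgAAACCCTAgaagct
AT2G36160, S11 family, chr2:15169718-15169817, plus strand: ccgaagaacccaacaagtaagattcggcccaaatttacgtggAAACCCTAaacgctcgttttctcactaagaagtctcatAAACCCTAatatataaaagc
AT5G23900, L13e family, chr5:8065551-8065650, minus strand: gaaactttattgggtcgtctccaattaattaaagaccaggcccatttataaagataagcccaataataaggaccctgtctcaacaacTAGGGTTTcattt
AT3G24830, L13 family, chr3:9064425-9064524, plus strand: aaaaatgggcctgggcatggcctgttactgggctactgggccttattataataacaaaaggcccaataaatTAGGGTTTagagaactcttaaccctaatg
AT2G37190, L11 family, chr2:15620157-15620256, minus strand: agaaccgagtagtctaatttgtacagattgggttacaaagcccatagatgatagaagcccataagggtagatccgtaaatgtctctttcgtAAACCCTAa

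The shifts of these genes were 1.09, 0.98, 0.92, 0.81 and 0.78 in the order printed. Over a window of 250 bases before to 50 bases after the gene start, on both strands, the telo-box was present in 77 of 147 ribosomal protein genes (52.4%) and in 685 of 13201 members with a place on the reference (5.19%). In the part before the gene start alone, 33 of the 147 (22.4%) and 440 of the 13201 (3.33%) held it. The other matches thus reach into the 50 bases after the start. In the whole window the box was present in 95 of 1102 members 1.5-fold higher (8.62%) and in 30 of 965 members 1.5-fold lower (3.11%). At 2-fold the shares were 6.16% and 3.69%. The median shift was 0.12 for genes with the box and 0.00 for genes without it. With the ribosomal protein and ribosome biogenesis genes left out, an alternative chosen after the values were seen, the shares at 1.5-fold were 5.91% for higher and 2.61% for lower genes, against 4.58% of the remaining members, and the median shift with the box was 0.05. Site II, spelled TGGGCC or GGCCCA, was held by 70.7% of ribosomal protein genes, 20.2% of 1.5-fold higher genes, 15.3% of 1.5-fold lower genes and 19.7% of members. The G-box CACGTG, an element bound by light-responsive bZIP and bHLH factors, was held by 8.62% of 1.5-fold higher and 7.77% of 1.5-fold lower genes, against 9.09% of members. For the I-box, GATAAG or CTTATC, the shares were 14.7%, 15.9% and 14.8%. No motif of the 4 contains another, and a match describes the letters only.

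A small set of ribosomal protein genes went the other way. The lowest were 4 genes for L41, the smallest protein of the large subunit, and 1 each for L39 and for AT4G33865 of the S14p/S29e family. AT3G56020, an L41 gene, had 71.6 RPKM in polysomal light and 75.7 in polysomal dark, with 34.1 in total light and 4.86 in total dark, and its shift was -2.68 (interval -2.94 to -2.42). AT2G40205, another L41 gene, had 232 and 230.3 RPKM in polysomal light and dark, 14 and 2.51 RPKM in total light and dark, and a shift of -2.26. In both genes the polysomal values were level and the total values were not. The remaining L41 genes AT3G11120 and AT1G56045 had shifts of -1.05 and -0.89, the L39 gene AT2G25210 had -0.96 and AT4G33865 had -0.64. All 6 are very short. The 29 members under 0.5 kb had a median shift of -0.50 and a median light ratio of 0.24 in total mRNA (log2), against -0.03 for all members; the part of length in these values was not tested.

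Genes that make and assist ribosomes lay on the same side. The 40 members of a list of ribosome biogenesis genes, formed after values were seen, had a median of 0.29, with 33 above 0, 11 at least 1.5-fold higher (27.5%, against 8.36% of all members) and none 1.5-fold lower (against 7.35%). At 2-fold 5 were higher, against 2.09% of all members, among them NUC-L2, a nucleolin, at 1.28, FIB2, a fibrillarin that methylates ribosomal RNA, at 1.05, and NOP10 at 1.23. NOP10 is a core protein of the particles that guide pseudouridine formation. It had 101 RPKM in polysomal light and 54.7 in polysomal dark, with 13.2 in total light and 14.5 in total dark. Its total mRNA was level, and its loading was 7.63 in light and 3.77 in the dark. The other 2 were AT3G22660, an rRNA processing protein, at 1.09 and AT3G57780, a nucleolar-like protein, at 1.02. The lowest was AT1G72270 at -0.50. Without centring the median of the 40 members was 0.08.

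Translation factors moved less. The 17 genes for initiation factors and poly(A)-binding proteins had a median of 0.19, and none passed 2-fold. Without centring their median was -0.03, so its sign rests on the centring. PAB4, a poly(A)-binding protein, was highest at 0.67 and EIF4G, the scaffold of the cap-binding complex, lowest at -0.29. All 4 elongation factor genes among the members were above 0, between 0.18 (LOS1) and 0.32 (ELF5A-1), and 9 with divided reads had a median of 0.21. The median of the 4 was 0.03 without centring. S6K1, a kinase that acts on ribosomal protein S6 in the TOR pathway, had a shift of 0.90 (interval 0.84 to 0.96) with a loading of 0.939 in light and 0.584 in the dark, whereas TOR had -0.12 and the lowest of the 7 genes of this list, S6K2, had -0.14. SR splicing factors, which bind pre-mRNA and guide splice site choice, had a median of 0.30 with 14 of 16 above 0. Without centring their median was 0.08. At 1.5-fold, 2 were higher (12.5%, against 8.36% of all members), SCL30A at 0.67 and SR34 at 0.61. None was 1.5-fold lower (against 7.35%), and the lowest was SCL28 at -0.48. With 16 members these counts are near the shares of all members. Genes known for upstream open reading frames gave only 5 members, with a median of 0.30 between VTC2 at -0.15 and BZIP11 at 0.58.

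Ribosomal proteins of the chloroplast, also encoded in the nucleus, did not share the direction of the cytosolic ones. Their 26 members had a median of -0.27, with 18 below 0. At 1.5-fold, 1 was higher (3.85%, against 8.36% of all members) and 5 were lower (19.2%, against 7.35%). Their messages rose strongly in both fractions, with a median light ratio of 1.11 in polysomal and 1.52 in total mRNA on the log2 scale. AT4G01310, an L5P family gene, was lowest at -0.85 and AT5G65220, an L29 family gene, highest at 0.95. Proteasome subunits, a group of housekeeping genes, had a median of 0.00 over 29 members, and none passed 1.5-fold; they ran between RPN10 at -0.32 and PAF1 at 0.47. Core histones had a median of -0.02 over 23 members, with HTR12 highest at 0.86 and HTA12 lowest at -0.72.

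**Figure D2:**
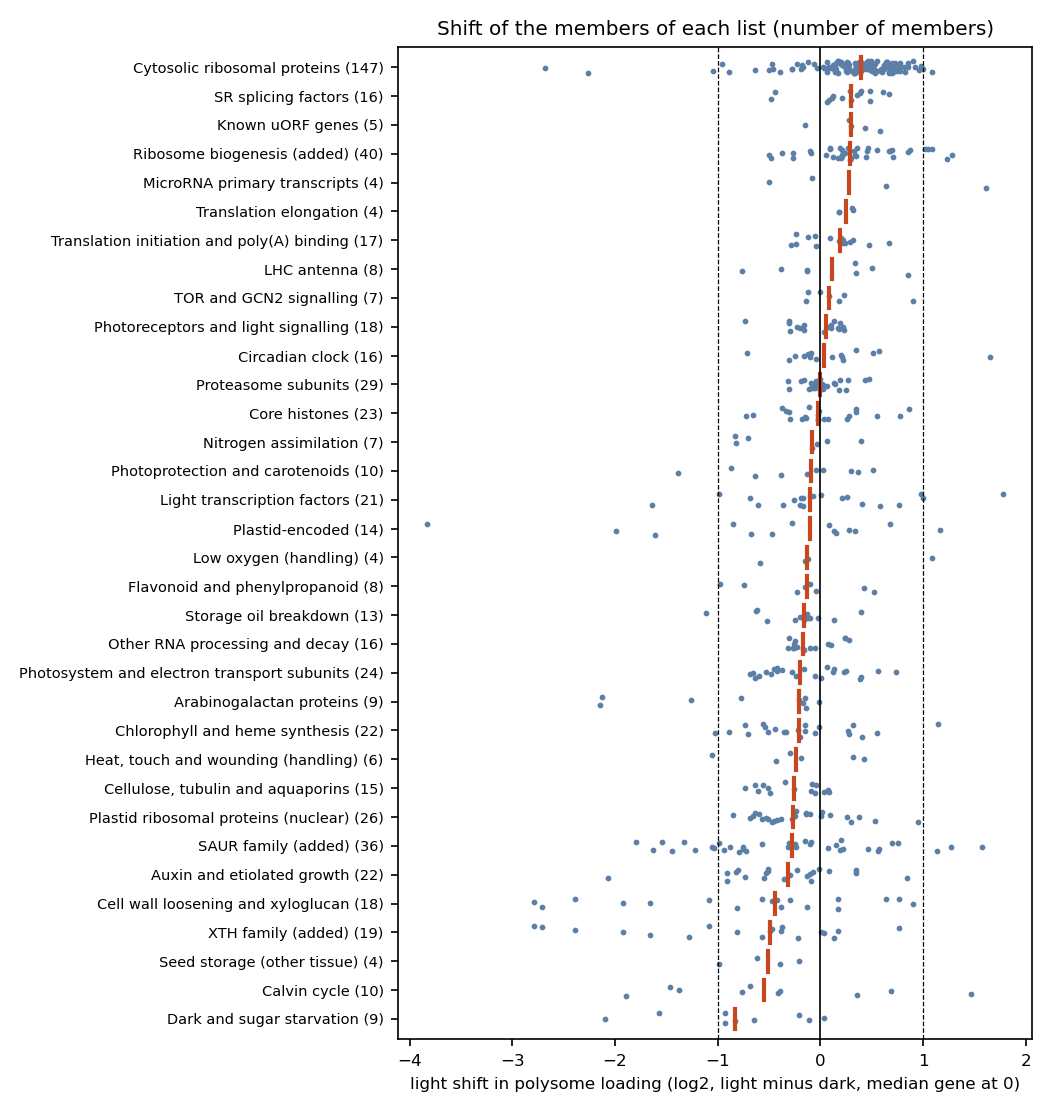
Shift of each member (points, log2, light minus dark, median gene at 0) in each list with at least 4 members, sorted by the list's median (red bar), with the number of members in brackets; dashed lines mark 2-fold. Cytosolic ribosomal proteins head the order with a median of 0.40, and the starvation list stands at the bottom with -0.83.

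Genes of cell wall loosening held several of the lowest shifts. Xyloglucan endotransglucosylase/hydrolases, the XTH enzymes, cut and rejoin the xyloglucan chains that tie cellulose fibrils together, and expansins loosen the same network as cells elongate. The 18 members of the list of wall loosening genes had a median of -0.44, with 6 at least 2-fold lower (33.3%, against 2.09%) and none 2-fold higher, and all 6 were XTH genes. Over all 19 XTH members found by name, a list added after values were seen, the median was -0.49. Of these, 7 were 2-fold lower (36.8%, against 2.09% of all members) and none higher. The lists share XTH genes, so the second count is not separate support.

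XTH18 (chromosome 4, 14825757 to 14827211) showed the fall most plainly, because its total mRNA was level. It had 15.9 RPKM in polysomal light and 109 in polysomal dark, with 108 in total light and 97.1 in total dark. The loading was 0.148 in light and 1.12 in the dark, a shift of -2.71 (interval -2.81 to -2.61), which is 6.54-fold lower. XTH33 had the same form, with 9.09 RPKM in polysomal light and 42.4 in polysomal dark, 8.80 in total light and 9.33 in total dark, and a shift of -1.92. XTH19, the neighbour of XTH18 on chromosome 4, fell in both fractions: 4.99 RPKM in polysomal light and 144 in polysomal dark, with 17.9 in total light and 85 in total dark, and a shift of -2.39. XTH5 was lowest at -2.79 (interval -3.20 to -2.39) at low levels, with 0.806 RPKM in polysomal light and 17.0 in polysomal dark. XTH17 and XTH15 were at -1.66 and -1.08; XTH15 overlaps another gene on the reference, and the counting is not stated to use strand.

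Not all wall enzymes followed. XTH7, at -1.28, had risen strongly in both fractions, with 182 RPKM in polysomal light and 10.6 in polysomal dark, and 219 in total light and 4.52 in total dark. XTH16, XTH28, XTH9 and XTH6 lay between 0.01 and 0.17, and XTH10 was highest of the family at 0.77. Of the expansins in the list, EXPA11, EXPA8 and EXPA4 were at -0.42, -0.30 and -0.13, while EXPA1, EXPA5, EXPA10 and EXPA2 were at 0.17, 0.64, 0.77 and 0.90. These last 4 were also the expansins of the list whose total mRNA was higher in light.

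Arabinogalactan proteins, proteoglycans of the cell surface and wall, had no member above 0. The median of 9 was -0.21, and 3 were 2-fold lower (33.3%, against 2.09% of all members). The median was -0.49 over 10 genes at a limit of 20 reads. AGP22 had 14.5 RPKM in polysomal light and 416 in polysomal dark, with 38.9 in total light and 217 in total dark, and its shift was -2.15. AGP4, which overlaps another gene, was at -2.13. AGP24 had 843 RPKM in polysomal light and 2061 in polysomal dark, beside 77.3 in total light and 68.0 in total dark, and its shift was -1.26 (interval -1.33 to -1.19). The highest was AGP15 at -0.01. Of the genes for water channels, cellulose synthases and tubulins, the 5 plasma membrane aquaporins among the members lay between -0.73 (PIP1C) and -0.49 (PIP3), while the 5 cellulose synthases lay between -0.09 and 0.08, with CESA3 the highest. None of these 15 members passed 2-fold.

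Genes of auxin response and etiolated growth had a median of -0.32 over 22 members, with 18 below 0. IAA6, an auxin-induced repressor of the Aux/IAA family, was the single one past 2-fold at -2.07 (interval -2.44 to -1.69); it had 1.75 RPKM in polysomal light and 73.4 in polysomal dark, with 2.48 in total light and 21.4 in total dark. HLS1, which keeps the apical hook closed, was at -0.91. GA3OX1, an enzyme that activates gibberellin, was the highest at 0.84. SAUR genes, short auxin-induced growth regulators grouped by name after values were seen, were spread widely: of 36 members 8 were 2-fold lower and 3 were 2-fold higher, against 2.09% of all members each way, with a median of -0.28 between AT2G37030 at -1.80 and AT1G79130 at 1.57. The other 7 lower ones were SAUR15 (-1.63), AT5G66260 (-1.54), AT1G29460 (-1.44), AT4G34810 (-1.33), AT1G29450 (-1.22), AT1G29500 (-1.06) and SAUR28 (-1.04), and the other 2 higher ones were AT1G75580 (1.27) and AT1G17345 (1.14). Many are single-exon genes with near copies, and the 10 SAUR genes with divided reads had a median of -0.78. The median of the family moved with the limits: it was -0.72 at 200 reads (19 genes), -0.57 with no minimum (49 genes), and 0.19 in the 8 members with a polysomal length within 5% of the tabulated one.

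Dark and sugar starvation genes, which are switched on when carbon runs short, formed the list with the lowest median among those of at least 4 members, -0.83 over 9. Of these, 6 were at least 1.5-fold lower (66.7%, against 7.35%), 2 were 2-fold lower (22.2%, against 2.09%) and none was 1.5-fold higher (against 8.36%). ASN1, asparagine synthetase, had 9.51 RPKM in polysomal light and 250.2 in polysomal dark, with 192 in total light and 1015 in total dark. The loading was 0.0496 in light and 0.246 in the dark, a shift of -2.10 (interval -2.17 to -2.02); ASN1 overlaps another gene. SEN1, a senescence marker induced by darkness, had 91.8 RPKM in polysomal light and 2154 in polysomal dark, with 97.2 in total light and 660.1 in total dark, and its shift was -1.57. DIN10 and DRM1 were both at -0.93 and DIN2 at -0.83, while TPS10 was highest at 0.04. Summed over the 9 genes, polysomal RPKM was 521 in light and 4278 in the dark, and total RPKM was 1461 in light and 4312 in the dark. With the 2 genes of divided reads included the median was -0.65.

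Among genes that photosynthesis needs, the Calvin cycle list stood lowest although its messages were strongly raised by light. Its 10 members had a median of -0.55, while their median light ratio was 2.38 in polysomal and 3.56 in total mRNA (log2). FBA1, a plastid aldolase (chromosome 2, 9128122 to 9130619), had 679 RPKM in polysomal light and 76.5 in polysomal dark, with 322 in total light and 8.43 in total dark. Its loading was 2.11 in light and 9.08 in the dark, a shift of -1.89 (interval -1.99 to -1.80). RCA, rubisco activase, was at -1.46 and SBPASE, sedoheptulose-bisphosphatase, at -1.38; RCA had 2919.5 RPKM in polysomal light and 376 in polysomal dark, with 3105 in total light and 125 in total dark, and overlaps another gene. In all 3 the polysomal level was far higher in light, but total mRNA was higher still. A further 9 Calvin cycle genes with divided reads had a median of -0.63, with 3 at least 2-fold lower.

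CP12-1 went the other way by 1.47 (interval 1.42 to 1.52). CP12 proteins bind glyceraldehyde-3-phosphate dehydrogenase and phosphoribulokinase and hold them inactive in the dark. It had 1227 RPKM in polysomal light and 324 in polysomal dark, with 147 in total light and 92.8 in total dark. Its relative CP12-2 was at -0.39, with 723 RPKM in polysomal light and 51.8 in polysomal dark, and 209.8 in total light and 9.87 in total dark. CP12-2 rose more than CP12-1 in both fractions.

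Light-harvesting antenna genes gave 8 members with a median of 0.11, from LHCA6 at -0.76 to LHCB4.1 at 0.85, and 13 with divided reads had a median of -0.15. The median turned to -0.11 without centring, and to -0.13 with the divided reads included. Subunits of the photosystems and electron transport had a median of -0.20 over 24 members, from PSAK at -0.69 to PSBQ-2 at 0.74, and none passed 2-fold. Chlorophyll and heme synthesis genes had a median of -0.21 over 22 members, with 16 below 0. CHLM, the methyltransferase that follows magnesium chelatase, was 2-fold higher at 1.15, with 241 RPKM in polysomal light and 73.5 in polysomal dark, and 175 in total light and 102 in total dark. PORB, a protochlorophyllide oxidoreductase, was 2-fold lower at -1.03, with 176 RPKM in polysomal light and 845 in polysomal dark, and 134 in total light and 272 in total dark. Both overlap another gene. Of the photoprotection and carotenoid genes, ELIP1 was lowest at -1.39 and BCH1, a carotene hydroxylase, highest at 0.51. The median of these 10 was -0.09, but their summed RPKM had a shift of 1.38. The polysomal sum was 2012 in light, of which ELIP1 was 1136, and 183 in the dark. The total sum was 676 in light and 138 in the dark. A sum mixes the loadings of different genes. As no member lay above 0.51, the value of 1.38 is not a loading shift of the members. Median and sum also differed in sign for flavonoid genes, with a median of -0.13 over 8 members and a shift of 0.35 for the sum. These genes ran from CHS at -0.98 to CHI at 0.52.

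Regulators of the light response were split. Light-related transcription factors had a median of -0.10 over 21 members. At 1.5-fold, 4 were higher (19.0%, against 8.36% of all members) and 4 were lower (19.0%, against 7.35%). GLK1, a factor that switches on chloroplast genes, had 12.2 RPKM in polysomal light and 8.96 in polysomal dark, with 4.65 in total light and 10.1 in total dark, and its shift was 1.78 (interval 1.60 to 1.96). Its total mRNA was lower in light while its polysomal mRNA was higher. SIG5, a sigma factor that directs the plastid RNA polymerase, had 57.4 RPKM in polysomal light and 2.65 in polysomal dark, with 94.1 in total light and 1.2 in total dark, and its shift was -1.64. PIF4 and PIF5, bHLH factors that promote hypocotyl growth, lay just under 2-fold at 1.00 and 0.98, whereas PIF3 and PIF1 were at -0.19 and -0.17. HY5, which promotes greening, was at -0.07 and its relative HYH at -0.26. HYH had a light ratio of 3.86 in polysomal and 4.33 in total mRNA on the log2 scale, and HY5 one of 1.91 and 2.19.

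The circadian clock list had a median of 0.04 over 16 members, with LHY past 2-fold at 1.65 (interval 1.51 to 1.80). LHY, a morning-phased repressor, had 7.15 RPKM in polysomal light and 5.19 in polysomal dark, with 4.88 in total light and 9.59 in total dark. Its partner CCA1 was at 0.11, with 12 RPKM in polysomal light and 6.58 in polysomal dark, and 28.2 in total light and 14.3 in total dark. ELF4, of the evening complex, was the lowest clock gene at -0.71. Photoreceptors and their signalling partners had a median of 0.05 over 18 members, from PHOT2 at -0.73 to PHYD at 0.23.

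By the rule for single genes, the 12 highest and 12 lowest of the 3657 members with a symbol, at least 200 reads in each library and a mean of at least 10 RPKM were named. The highest was DR4 (drought-repressed 4; chromosome 1, 27568714 to 27569823), with 17.2 RPKM in polysomal light and 5.44 in polysomal dark, and 20.8 in total light and 30.3 in total dark. Its loading was 0.828 in light and 0.180 in the dark, a shift of 2.42 (interval 2.23 to 2.60). LP1, a lipid transfer protein of the cell wall, had 719.6 RPKM in polysomal light and 129 in polysomal dark, with 85.6 in total light and 50.6 in total dark, and its shift was 1.93. ESB1, a dirigent protein of the Casparian strip, was at 1.81. Its polysomal values were 109.7 RPKM in light and 80.3 in the dark, while its total values were 80.8 in light and 178 in the dark. COL2, a CONSTANS-like factor, followed at 1.48; ESB1 and COL2 overlap another gene. The entry named MIR414 was at 1.61, but its tabulated length of 0.73 kb is far longer than the reference locus, and the RNA counted there need not be a microRNA precursor. The other 3 microRNA transcripts among the members lay between -0.50 and 0.64. The other 6 were TLP6 (1.37), FBH3 (1.36), CYP710A2 (1.35), UMAMIT41 (1.32), ERD9 (1.31) and NIC3 (1.31), besides CP12-1. TLP6 differed from the rest in that both fractions were lower in light, polysomal mRNA less so: 6 RPKM in polysomal light and 13.0 in polysomal dark, with 8.24 in total light and 39.8 in total dark.

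**Figure D3:**
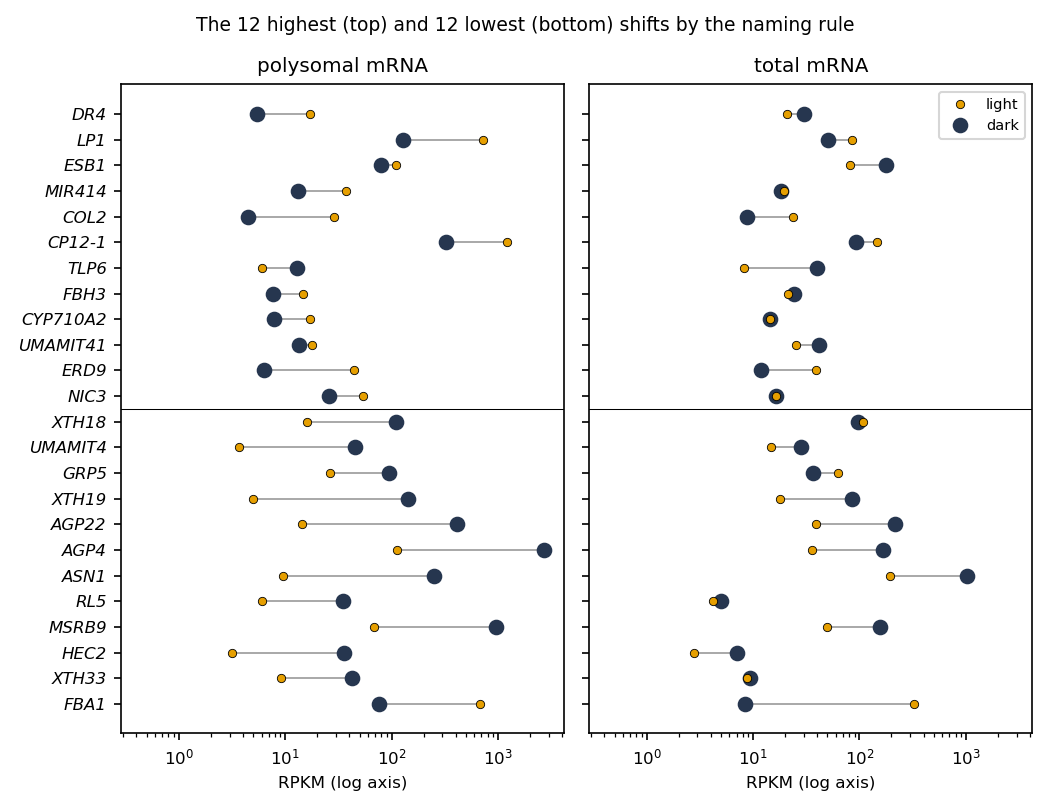
RPKM (log axis) in polysomal mRNA (left) and total mRNA (right) of the 12 genes with the highest shifts (above the line) and the 12 with the lowest (below), light in orange and dark in dark blue. In the upper genes polysomal mRNA is higher in light for 11 of 12, and in the lower genes it is lower in light for 11 of 12, FBA1 being the exception.

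The 12 lowest were led by XTH18, followed by UMAMIT4 (-2.49), a transporter family member, and GRP5 (-2.40), a glycine-rich protein. GRP5 had 26.6 RPKM in polysomal light and 94.0 in polysomal dark, but 63.1 in total light and 36.2 in total dark, so the fractions went opposite ways. Besides the XTH, AGP, ASN1 and FBA1 genes already given, the set held RL5 (-2.05), MSRB9 (-1.94) and HEC2 (-1.94), a bHLH factor. RL5, a small MYB-related protein, had 6.10 RPKM in polysomal light and 34.9 in polysomal dark, with 4.19 in total light and 4.99 in total dark.

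Genes whose total mRNA differed by under 25% between light and dark show the shift in the polysomal values alone. The 6 highest of these were MIR414, FBH3, CYP710A2, NIC3, NOP10 and OBP4, and the 6 lowest were XTH18, RL5, XTH33, AZI1, GRF2 and AGP24. CYP710A2, a sterol desaturase, had 17.3 RPKM in polysomal light and 7.87 in polysomal dark, beside 14.5 in total light and 14.5 in total dark. NIC3, a nicotinamidase of NAD salvage, had 54.3 RPKM in polysomal light and 25.6 in polysomal dark, beside 16.3 in total light and 16.4 in total dark. OBP4, a Dof factor, had a shift of 1.22. AZI1, a lipid transfer-like protein of plant defence, had 19.2 RPKM in polysomal light and 69.5 in polysomal dark, beside 82.4 in total light and 82.9 in total dark, and its shift was -1.63 (interval -1.74 to -1.51). GRF2, a growth-regulating factor, was at -1.30. Of the genes named by rank or from a list, ERD9, FIB2, PAB4, CESA3, HTA12, EXPA2, DIN10, PHOT2, PIF1, TCH3, CHS, AT2G40205 and AT4G01310 also overlap another gene, and their values are uncertain for that reason.

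Organelle transcripts gave few members, in mRNA purified on an oligo(dT) resin. Of 14 plastid-encoded members 3 were 2-fold lower (21.4%) and 1 was 2-fold higher (7.14%), against 2.09% of all members each way. Their median was -0.10. ATCG00630 had the lowest shift of all members, -3.83 (interval -4.36 to -3.31), with 11.8 RPKM in polysomal light and 14.9 in polysomal dark, and 22.2 in total light and 1.69 in total dark. ATCG00790 and ATCG00220 were at -1.99 and -1.61, and ATCG00020 at 1.16. All 3 mitochondria-encoded members were 2-fold lower, ATMG00030 at -2.68, ATMG00020 at -1.35 and ATMG01390 at -1.18. These RNAs lie inside organelles and are not on cytosolic ribosomes, so the ratio of the fractions is given only as a value.

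**Figure D4:**
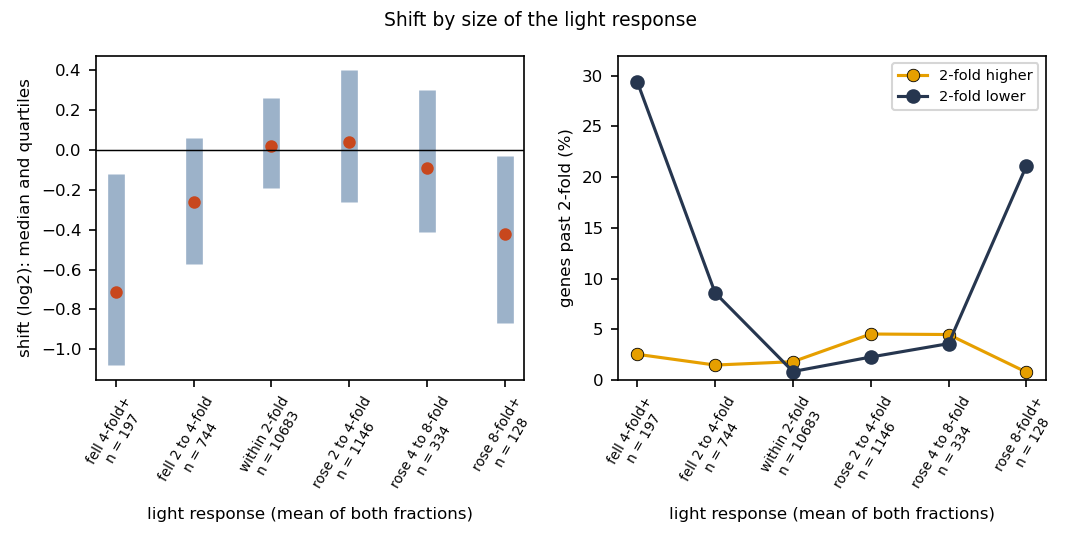
Shift (left: median as a point, quartiles as a bar) and percent of genes past 2-fold (right) in 6 bins of the light response, the mean of the median-centred log2 light ratios of both fractions; n is the number of genes. The median is -0.71 in the bin that fell most and -0.42 in the bin that rose most. It is -0.26 in the bin that fell 2 to 4-fold and between -0.09 and 0.04 in the other 3.

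Median shifts differed between bins of the light response. Bins and shift are built from the same values, so a dependence of the shift on the response was not tested. Genes were binned by the mean of their light ratios in both fractions, each centred on its median, which counts both fractions alike but still shares its values with the shift. The 197 genes that fell at least 4-fold had a median shift of -0.71, and 58 of them were 2-fold lower (29.4%). The 128 genes that rose at least 8-fold had a median of -0.42, and 27 were 2-fold lower (21.1%) against 1 that was 2-fold higher. The 10683 genes within 2-fold had a median of 0.02, with 90 lower (0.842%) and 193 higher (1.81%). The size of both medians depended on which ratio set the bins. Binned by the polysomal ratio alone, the median was -0.71 for the 382 genes that fell at least 4-fold and -0.16 for the 83 genes that rose at least 8-fold. Binned by the total ratio alone, it was -0.23 for 152 genes that fell, 12 of them 2-fold higher and 32 lower, and -0.64 for 159 genes that rose.

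Gene structure was only weakly related to the signed shift, but shifts past 2-fold in either direction were more frequent among short genes. Across the 13232 members Spearman's rho was -0.08 with gene length and -0.14 with mean RPKM. Over the 13035 with a coding model it was -0.02 with the length of the 5′ leader and 0.02 with the number of exons. These describe genes of the same 4 libraries, which are not independent replicates. The median shift was -0.50 for the 29 genes under 0.5 kb and 0.01 for genes of 0.5 to 1 kb. It was 0.05 for 1 to 1.5 kb, -0.08 for 3 to 5 kb and -0.14 for those over 5 kb. Under 0.5 kb, 6.9% were 2-fold higher and 27.6% lower. The shares were 3.71% and 4.16% at 0.5 to 1 kb, and 0.48% and 1.12% at 3 to 5 kb. The part of counting error in these shares was not tested.

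Alternative splicing, which the same study surveyed, left little trace in the shift. The 5649 members listed with a retained intron had a median of 0.01 and the 6262 with no listed event 0.00. Of genes with an intron retained more in light, 723 were members with a median of 0.03, and the 832 with an intron retained less in light had 0.00. Genes past 2-fold were a smaller share among those with a retained intron, 1.73% higher and 1.43% lower, than among those with no event, 2.51% and 2.91%. Among members of 1 to 3 kb the gap was narrower, 1.85% and 1.37% against 2.3% and 2.41%. The part of gene length in this gap was not tested.

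Markers of other tissues and of handling were set beside these values. Seed storage genes, left over from the embryo, gave 4 members, all below 0, from SESA5 at -0.99 to CRA1 at -0.21. Their summed RPKM was 84.0 in polysomal light and 279.7 in polysomal dark, with 28.6 in total light and 61.6 in total dark. The root factors SCR and SHR were at -0.20 and 0.01. Of the heat, touch and wounding genes 1 of 6 passed 2-fold, TCH3 at -1.06, and ZAT12 was highest at 0.42; of the low oxygen genes SUS4 was at 1.09 and LBD41 at -0.59. Storage oil breakdown had a median of -0.16 over 13 members, with ACX1, the first enzyme of peroxisomal fatty acid oxidation, at -1.11 and MLS at 0.40. ACX1 had 54.5 RPKM in polysomal light and 133 in polysomal dark, with 81.0 in total light and 78.7 in total dark. Nitrogen assimilation genes had a median of -0.08 over 7 members, from the cytosolic glutamine synthetase AT5G37600 at -0.83 to NIR1 at 0.40, and genes of other RNA processing and decay ran from VCS at -0.32 to Y14 at 0.28. The part of tissue make-up and handling in the shifts was not tested.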

How the data were processed

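mRNA of 4 samples was sequenced, with 1 library for each of polysomal light, polysomal dark, total light and total dark. The deposited table gives, per the file headers, reads and RPKM (reads scaled by gene length and library total) per gene. The authors' reads of total mRNA are whole counts and those of polysomal mRNA are estimated counts, part of which are not whole. The deposited splicing tables list percent values of events, per the file headers, and were used only to sort genes by event. The genome build was TAIR10, per the submitters' processing notes; for the aligner and the counting, the method was not given in the sources used here.

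Shifts and lists were computed with Python 3.11.15, pandas 2.3.3, numpy 2.4.6 and scipy 1.17.1, with no pseudocount, and centred on the median gene with 50 reads in each library. Counting intervals (95%) treat reads as Poisson counts; reads are not independent molecules, and the interval covers counting error only. The computation was tested on simulated Poisson reads with the same gene length in both fractions. Such reads cannot test the effect of unequal gene lengths, divided reads or variation between libraries. Gene places, names and promoter stretches are from RefSeq (TAIR 10.1), which gave a place for 13201 and a product name for 13165 of the 13232 members. By that reference 2572 members (19.5% of those placed) overlap another gene. The members and lists were chosen with earlier results of these data known, and 3 lists (ribosome biogenesis, XTH, SAUR) were formed from product words after values were seen. Named are the 12 highest and 12 lowest members with a symbol, 200 reads in each library and 10 RPKM on average, the 6 highest and 6 lowest of these whose total mRNA differed by under 25%, the ends of each list with members past 2-fold, and genes 2-fold up in one fraction and 2-fold down in the other. A list of genes with a conserved upstream peptide locus matched no gene. Alternatives for read limits, centring, pseudocount, length and overlap are given at the end. Results for some genes are not reported here.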

Additional observations from a re-analysis of the deposited data

Results flagged for a closer look

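In 5 members light and dark differed by at least 2-fold in both fractions but in opposite directions. AT1G05135 had 16.2 RPKM in polysomal light and 75.4 in polysomal dark, with 21.7 in total light and 9.42 in total dark, a shift of -3.21. ATMG00030, a mitochondrial entry, had 152 RPKM in polysomal light and 396 in polysomal dark, with 121 in total light and 42.7 in total dark, a shift of -2.68. The other 3 went up in polysomal and down in total mRNA at low levels. AT4G02360, a DUF538 protein, had 2.86 RPKM in polysomal light and 1.12 in polysomal dark, with 1.74 in total light and 3.55 in total dark, a shift of 2.60. AIR1, named for its induction by auxin in root cultures, had 3.69 RPKM in polysomal light and 1.56 in polysomal dark, with 1.07 in total light and 2.65 in total dark, a shift of 2.76; it overlaps another gene. AT2G01913 had 2.58 RPKM in polysomal light and 0.884 in polysomal dark, with 0.700 in total light and 1.53 in total dark, a shift of 2.89. With 1 library a group the difference between the fractions was not tested in any of them.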

How the results depend on the processing

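No paired analysis was possible because each group has 1 library. All 34 single genes named by rank or by opposite directions kept their direction under each setting in which they had a value. Of these, 33 stayed past 2-fold, OBP4 being the exception at 0.99. Most settings leave a gene's own value as it was or move all genes alike, and these genes were chosen for extreme values. Their kept direction is therefore no separate support, and not all of them had a value at equal gene lengths. With no centring, which moves the median gene by 0.215, 141 genes were 2-fold higher and 501 lower, and with nuclear RPKM sums set equal 137 and 516; the medians were then 0.18 and 0.18 for cytosolic ribosomal proteins, -0.77 and -0.78 for the Calvin cycle, -0.66 and -0.67 for wall loosening, and -1.05 and -1.06 for starvation genes. The higher and lower counts were 384 and 395 at 20 reads, 105 and 150 at 200 reads, 469 and 561 with no minimum above 0, and 110 and 193 with a pseudocount of 1 RPKM. They were 45 and 62 at 3-fold, 1106 and 973 at 1.5-fold, and 100 and 147 for whole intervals. Limits added after values were seen gave 67 and 172 at 10 RPKM and 132 and 97 for equal gene lengths. Starvation genes had -0.65 with divided reads included and -0.11 for the 1 gene left with equal lengths. The excess of the telo-box among 1.5-fold higher genes over all members, 3.43 percentage points, was 1.66 in the part before the gene start and 1.33 without ribosomal protein and biogenesis genes. Of 464 alternative list medians 371 moved by less than 0.17. That limit is the median half-width of a single gene's counting interval and not a spread of list medians. Several settings can hardly move a list median, so the count is no measure of stability. Over all settings the median ran from -0.13 to 0.42 for antenna genes and from 0.18 to 0.45 for cytosolic ribosomal proteins. Low depth limits genes near 50 reads most.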
